A study of Mus musculus with 6 samples.

Results

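The 9 genes described here encode the thick filament motor and the thin filament proteins of the cardiac sarcomere that exist as fetal and adult isoforms. They were chosen by name, as *Myh6*, *Myh7*, *Myh7b*, *Acta1*, *Actc1*, *Tnni1*, *Tnni3*, *Tnnt1* and *Tnnt2*, and their symbols were matched to Ensembl identifiers with GENCODE M21. All 9 were found among the 54232 genes of the count files, and all 9 passed the filter on low counts that left 14133 genes for testing. Heart ventricle RNA was sequenced from 3 WD + Tributyrin and 3 WD + Vehicle mice, all C57BL/6J and WT and all on a western diet (WD) for 15 weeks before treatment. Tributyrin is a triglyceride of butyrate and was needle-fed at 5 g/kg for 3 weeks, while the controls received a vehicle that the sample labels call PBS. Each comparison is therefore of treated against vehicle-fed mice on the same diet, and mice on normal chow were not analysed here. The labels give neither age nor sex, and in all 6 libraries the Y-linked *Ddx3y* stood at 68.3 to 85.5 CPM (counts per 1000000 counts, with library sizes scaled by the TMM method of edgeR) and *Xist* at 0.237 CPM or less. The labels name the samples separately and say nothing of their housing, so the p-values measure only the spread between these samples.

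A rodent ventricle before birth builds its sarcomeres with β-myosin heavy chain (*Myh7*), skeletal α-actin (*Acta1*), slow skeletal troponin I (*Tnni1*) and transcribes slow skeletal troponin T (*Tnnt1*) as well. After birth thyroid hormone and other signals switch it to α-myosin heavy chain (*Myh6*), a faster ATPase, and to cardiac troponin I (*Tnni3*). Cardiac α-actin (*Actc1*) and cardiac troponin T (*Tnnt2*) are the adult partners of *Acta1* and *Tnnt1* in the list. It is not meant that they first appear after birth, and counts per gene do not separate splice forms. In hypertrophy and heart failure of rodents *Myh7* and *Acta1* are re-expressed as part of the fetal gene program, whereas the troponin I switch is not usually undone. *Myh7b* encodes a slow-type myosin heavy chain, has no adult partner here and is known mainly as the host of a microRNA.

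The members of a pair have related sequences, and how alike they are sets how well short reads can tell them apart. *Myh6* (ENSMUSG00000040752, GRCm38 chr14:54941921-54966927, minus strand) and *Myh7* (ENSMUSG00000053093, chr14:54970684-54994626, minus strand) lie 3756 bases apart. Their coding sequences of 1938 and 1935 codons were identical at 91.7% of aligned bases, with a longest identical run of 245 bases. Of the 6181 windows of 50 bases, the read length, in the *Myh7* transcript, 22.2% also occur in *Myh6*, and 28.2% occur in *Myh6* or another annotated gene. A read from a window shared with *Myh6* matches both genes, and no source used here gives the treatment of such reads in the counting. Both strands were searched, so the other windows can include those of genes antisense to *Myh7* at the same place. The first 120 coding bases of both genes are shown because they hold the kind of differences that separate the 2 isoforms, with the 32 differing bases in capitals. They are GENCODE M21 sequence and start at base 54992873 of chr14 for *Myh7* and at base 54965460 for *Myh6*, both on the minus strand.
Myh7: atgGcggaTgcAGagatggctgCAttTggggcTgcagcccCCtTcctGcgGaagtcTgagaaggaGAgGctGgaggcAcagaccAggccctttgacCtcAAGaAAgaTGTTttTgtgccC
Myh6: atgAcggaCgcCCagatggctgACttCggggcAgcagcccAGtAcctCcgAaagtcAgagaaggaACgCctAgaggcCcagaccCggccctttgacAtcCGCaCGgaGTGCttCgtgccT

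*Acta1* (ENSMUSG00000031972, chr8:123891769-123894751, minus strand) and *Actc1* (ENSMUSG00000068614, chr2:114047282-114053548, minus strand) both have 377 codons and were identical at 86.3% of 1131 coding bases. Their differences are spread so evenly that the longest identical run is 29 bases and no window of 50 bases is shared, so a read without errors fits 1 of them only. *Acta1* shares 31 windows, 2.22% of its transcript, with the annotated gene *Gm47692*. The first 120 coding bases show the spacing, with 19 differing bases in capitals, and start at base 123893697 of chr8 and base 114052031 of chr2 on the minus strand.
Acta1: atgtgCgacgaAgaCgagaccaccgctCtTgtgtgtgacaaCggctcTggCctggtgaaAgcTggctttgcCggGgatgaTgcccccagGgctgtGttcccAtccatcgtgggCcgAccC
Actc1: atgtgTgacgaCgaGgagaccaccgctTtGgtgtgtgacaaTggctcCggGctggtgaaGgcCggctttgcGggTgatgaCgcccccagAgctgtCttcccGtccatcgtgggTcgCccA

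The troponin pairs are more distant relatives. *Tnni1* (ENSMUSG00000026418, chr1:135779434-135810989, plus strand) has 187 codons and *Tnni3* (ENSMUSG00000035458, chr7:4518305-4524229, minus strand) has 211, and 66.0% of their aligned coding bases were identical. *Tnnt1* (ENSMUSG00000064179, chr7:4504570-4516382, minus strand) has 262 codons and *Tnnt2* (ENSMUSG00000026414, chr1:135836354-135852260, plus strand) has 302, with 69.7% identity. The longest coding transcripts of these 4 genes share no window of 50 bases with any other annotated gene. Their other exons were not searched, and *Tnni3* shares 86 exonic bases with the gene *Dnaaf3*. In the genome each fetal troponin neighbours an adult one of the other kind. *Tnnt1* starts 1922 bases from the end of *Tnni3*, and *Tnni1* lies 25364 bases from *Tnnt2* with only the coding gene *Lad1* between them. *Myh7b* (ENSMUSG00000074652, chr2:155611212-155634307, plus strand) lies far from *Actc1* on the same chromosome, and its longest coding transcript shares no window with another gene.

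Each myosin gene also carries a microRNA in an intron, and the 3 microRNAs are close relatives. Their mature RefSeq sequences (GRCm38.p6) are shown because the seed, bases 2 to 8 in capitals, is the same in miR-208a-3p of *Myh6* (chr14, from base 54949072, minus strand) and miR-208b-3p of *Myh7* (chr14, from base 54975710, minus strand), and is a different but similar one in miR-499-5p of *Myh7b* (chr2, from base 155622893, plus strand).
miR-208a-3p: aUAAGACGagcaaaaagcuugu
miR-208b-3p: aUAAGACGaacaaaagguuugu
miR-499-5p: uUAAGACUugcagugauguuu
Reads from mRNA libraries that fall on the annotated hairpins are not mature microRNAs, and reads that overlap so short a feature in part weigh more than they do for a long transcript. The *Mir208b* hairpin of 77 bases held 97 to 157 reads per library, while the *Mir208a* hairpin of 83 bases held 2 to 5 and the *Mir499* hairpin of 79 bases 0 or 1. Per base, the *Mir208b* hairpin was covered at 1.82 to 3.86 times the level of *Myh7* itself, and the *Mir208a* hairpin at 0.000230 to 0.000772 times the level of *Myh6*. The order of the hosts in mRNA was not the order of their hairpins in reads. The *Mir208b* counts of 110, 157 and 123 in WD + Tributyrin mice overlapped the 144, 125 and 97 in WD + Vehicle mice.

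In all ventricles the transcripts of each pair were mostly of the adult isoform, and the proteins were not measured. Levels are given as CPM, and between genes only per kb of the longest coding transcript. Over the 6 libraries the median level was 3185 CPM per kb for *Myh6*, 20.1 for *Myh7* and 7.57 for *Myh7b*. Among the sarcomeric myosin heavy chain genes *Myh6* took 98.8 to 99.3% of the summed level per kb, *Myh7* 0.501 to 0.965% and *Myh7b* 0.205 to 0.256%. The developmental and fast skeletal genes *Myh1*, *Myh2*, *Myh3*, *Myh4* and *Myh8* held 0 to 3 reads per library.

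*Actc1* had a median of 7616 CPM per kb and *Acta1* 252, which made *Acta1* the most abundant of the fetal isoforms. *Tnni3* stood at 4135 CPM per kb and *Tnni1* at 0.501, below *Tnni2*, the fast skeletal troponin I, at 1.72. *Tnnt2* reached 5556 CPM per kb, *Tnnt1* 9.04 and *Tnnt3*, the fast skeletal troponin T, 0.172. Adult over fetal isoform, the median ratio per kb was 30.6 for actin (range 10.2 to 96.5), 154 for myosin (102 to 198), 609 for troponin T (546 to 802) and 8965 for troponin I (4585 to 154777). With the length of all annotated exons in place of the longest transcript these medians were 29.6, 194, 196 and 12407, so the places of myosin and troponin T are a matter of the length used. Actin remained the pair with the most fetal transcript and troponin I the pair with the least under both lengths.

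**Figure D1:**
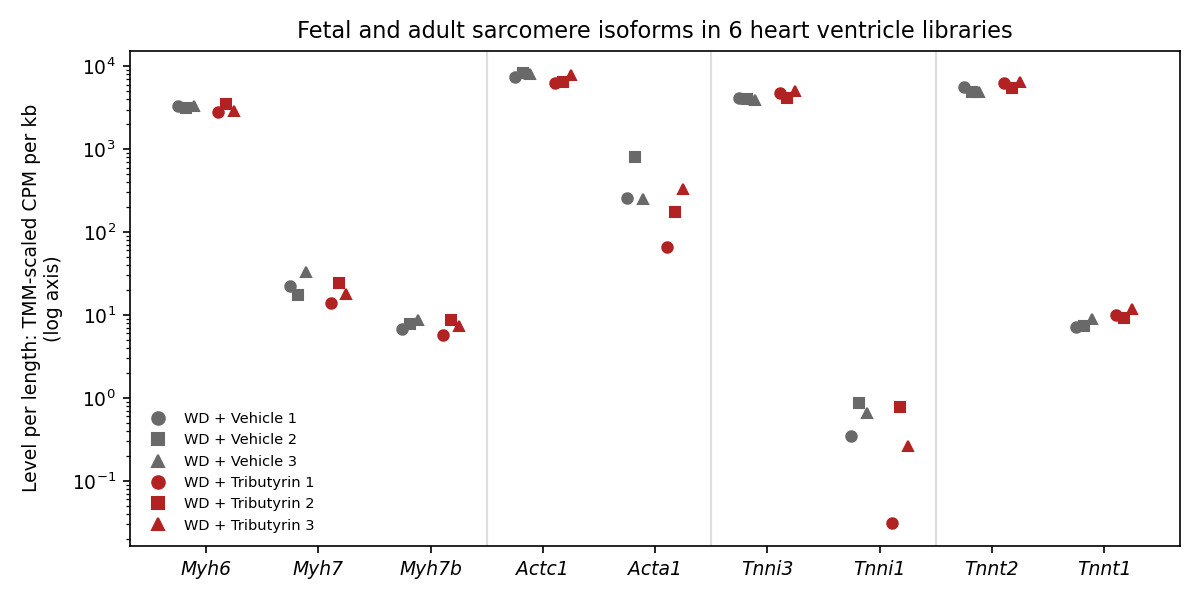
Level of each isoform gene per kb of transcript (TMM-scaled CPM per kb, log axis) in each library, with WD + Vehicle mice in grey, WD + Tributyrin mice in red and the shape giving the mouse number. The 4 adult isoforms and *Actc1*'s partner *Acta1* lie above all other genes, *Tnni1* lies lowest, and the 6 points of *Acta1* and *Tnni1* are spread the widest.

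The comparison of WD + Tributyrin with WD + Vehicle mice asks whether the treatment moved these isoforms in hearts already on the western diet. No member passed the test (edgeR's quasi-likelihood test, Benjamini-Hochberg adjusted over 14133 genes, adjusted p = 0.999 for each of the 9), and 0% of all genes tested passed an FDR of 10%. Unadjusted, 600 genes had a p under 0.05 with edgeR, 460 with DESeq2 and 605 with limma-voom. At an FDR of 10% DESeq2 called 11 of 12977 genes (0.0848%) and limma-voom 0, with no member among them, and *Tnni1* received no adjusted p from DESeq2. Of the 9 members 3 had a higher mean with Tributyrin and 6 a lower one, where 49.6% of all genes tested were higher. Their median log2 fold change was -0.10, beside -0.0013 over all genes. Unadjusted p was under 0.05 for 4 members, 3 higher and 1 lower, where 4.25% of all genes were (1.97% higher, 2.28% lower). With library sizes alone in place of TMM scaling it was under 0.05 for 3 members, 1 higher (*Tnnt1*) and 2 lower (*Acta1* and *Actc1*), so this balance depends on the scaling. The values of the groups did not overlap for 2 members, both higher, against 8.94% of all genes (4.34% higher, 4.61% lower). Of these members *Tnnt1* did overlap with library sizes alone in place of TMM scaling. In bulk ventricle fewer cells of a type and less RNA per cell cannot be told apart.

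*Myh6*, the main motor of the adult mouse ventricle, measured 16973, 21671 and 17653 CPM in WD + Tributyrin mice 1, 2 and 3, and 20073, 18868 and 20428 CPM in WD + Vehicle mice 1, 2 and 3. The treated mice held both the lowest and the highest value, and the groups overlapped. Its log2 fold change was -0.08 ± 0.099 (SE, n = 3 per group, edgeR, adjusted p = 0.999).

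*Myh7*, the slow motor that marks the fetal program, stood at 87.3, 151 and 112 CPM with Tributyrin and at 138, 109 and 203 CPM with vehicle. Vehicle mouse 3 was the highest and Tributyrin mouse 1 the lowest, with the other 4 interleaved. Its log2 fold change of -0.36 ± 0.227 (SE, edgeR, adjusted p = 0.999) shrank to -0.08 without vehicle mouse 3. *Mhrt*, a long noncoding RNA transcribed antisense to *Myh7*, shares 484 exonic bases with it and held 417 to 602 reads per library, against 2455 to 4346 for *Myh7*. Its log2 fold change was 0.01 ± 0.12 (SE). The kit keeps the strand, but no source used here gives the strand setting of the counting.

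Reads of *Myh7* per 1000 reads of *Myh6* were 5.14, 6.99 and 6.35 with Tributyrin and 6.88, 5.80 and 9.96 with vehicle. A ratio within a library does not depend on its depth or scaling. The means were 6.16 ± 0.936 and 7.55 ± 2.16 (SD, n = 3), and 5 of the 6 mice lay between 5.14 and 6.99. On the log2 scale the ratio was lower by a mean of -0.27 ± 0.265 (SE) with Tributyrin, and the groups did not separate (p = 0.5, two-sided exact permutation test). With 3 mice against 3 this test cannot go below 0.1. Per kb, *Myh7* made up 0.601% ± 0.091 of both myosins with Tributyrin and 0.735% ± 0.209 with vehicle (SD, n = 3).

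*Myh7b* measured 35.4, 53.2 and 45.4 CPM with Tributyrin and 41.8, 47.9 and 53.5 CPM with vehicle. The groups spanned almost the same range, and the log2 fold change was -0.10 ± 0.14 (SE, edgeR, adjusted p = 0.999). Without Tributyrin mouse 1 it turned to 0.05, so its direction rests on that mouse. All 3 myosin genes had their lowest value in this mouse.

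*Acta1*, the skeletal actin that stressed rodent hearts re-express, differed more between mice than any other member except the scarce *Tnni1*. It measured 94.2, 254 and 475 CPM with Tributyrin and 372, 1164 and 358 CPM with vehicle. The highest mouse had 12.4 times the level of the lowest, and Tributyrin mouse 3 lay above vehicle mice 1 and 3. A log2 fold change of -1.20 ± 0.55 (SE, edgeR, unadjusted p = 0.0525, adjusted p = 0.999) was -0.41 without vehicle mouse 2, -0.79 without Tributyrin mouse 1 and -1.86 without Tributyrin mouse 3. The fitted dispersion of *Acta1* was 0.205, a fitted coefficient of variation of 45.2% between mice of a group. Such fitted values are drawn toward the trend over all genes and are not the raw spread of these mice. Raw values were 274 ± 191 CPM with Tributyrin and 631 ± 462 CPM with vehicle (mean ± SD, n = 3). Among the 392 genes within 1 log2 CPM of its level *Acta1* had the highest dispersion, and the median of those genes was 0.00687. With 2648 to 39556 reads per library, counting error is a small part of this spread.

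*Actc1*, the adult partner, measured 9257, 9444 and 11397 CPM with Tributyrin and 11039, 12097 and 11710 CPM with vehicle. Tributyrin mice 1 and 2 lay below every vehicle mouse and Tributyrin mouse 3 lay among them. Its log2 fold change was -0.21 ± 0.093 (SE, edgeR, unadjusted p = 0.0450, adjusted p = 0.999). The fitted coefficient of variation was 8.98%, so relative to its level *Actc1* varied far less than *Acta1*, at 45.2%. In CPM the SD of *Actc1* was the larger of the pair, at 1185 with Tributyrin and 535 with vehicle.

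Reads of *Acta1* per 1000 reads of *Actc1* were 10.2, 26.9 and 41.7 with Tributyrin and 33.7, 96.3 and 30.5 with vehicle. Vehicle mouse 2 and Tributyrin mouse 1 stood at the ends, and the 4 mice between them held both groups. The means were 26.3 ± 15.8 and 53.5 ± 37.1 (SD, n = 3), and the log2 difference of -1.04 ± 0.80 (SE) did not pass the test (p = 0.4, two-sided exact permutation test). Per kb, *Acta1* made up 2.59% ± 1.52 of both actins with Tributyrin and 5.09% ± 3.33 with vehicle, and in single mice between 1.03% and 8.93%.

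**Figure D2:**
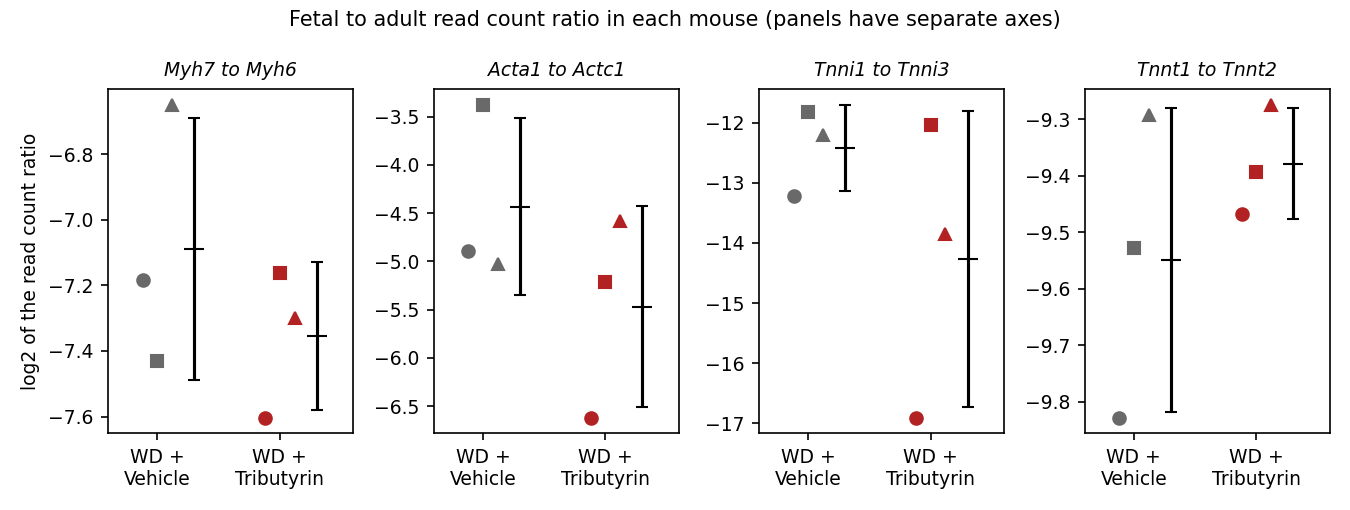
Log2 of the fetal to adult read count ratio in each mouse for the 4 pairs, each panel with its own axis, grey for WD + Vehicle and red for WD + Tributyrin, shapes for mouse 1 (circle), 2 (square) and 3 (triangle), and black bars for the mean ± SD of 3 mice. The groups overlap in all 4 panels, and the exact p-values are 0.5, 0.4, 0.3 and 0.4 from left to right.

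The actin promoters are shown because this pair held the most fetal transcript and the member with the widest spread above 1 CPM. The windows are the 250 bases before the RefSeq start site (GRCm38.p6), chr8:123894776-123895025 for *Acta1* and chr2:114052876-114053125 for *Actc1*, both on the minus strand. The RefSeq starts lie 24 and 673 bases from the outermost starts in GENCODE. Capitals mark matches, on either strand, to the CArG box bound by serum response factor, to the M-CAT motif CATTCC bound by TEAD factors and to the TATA motif TATAAA, and no 2 of the marked matches overlap.
Acta1: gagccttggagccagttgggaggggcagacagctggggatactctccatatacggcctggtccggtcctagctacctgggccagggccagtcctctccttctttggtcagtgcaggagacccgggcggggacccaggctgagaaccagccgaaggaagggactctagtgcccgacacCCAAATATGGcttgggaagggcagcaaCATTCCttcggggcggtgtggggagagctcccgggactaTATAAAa
Actc1: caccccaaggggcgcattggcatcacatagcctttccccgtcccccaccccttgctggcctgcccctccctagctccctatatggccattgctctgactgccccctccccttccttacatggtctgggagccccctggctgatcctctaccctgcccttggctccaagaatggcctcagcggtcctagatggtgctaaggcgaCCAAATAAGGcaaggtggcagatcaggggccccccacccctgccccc
*Acta1* holds all 3 motifs and *Actc1* the CArG box only. Over all 32851 windows of the same length, of 27025 genes, 1.47% hold a CArG box, 12.6% the M-CAT letters and 12.4% the TATA letters. The M-CAT letters also occur in windows of *Myh6*, *Myh7* and *Tnnt2* and the TATA letters in that of *Tnnt1*. The windows of *Myh7b*, *Tnni1* and *Tnni3* hold none of the 3. Their start sites lie 31, 19987 and 1701 bases from the outermost starts in GENCODE, so this holds for these windows only. A match in letters is not a measured binding site.

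*Tnni1* was close to the limit of detection. Its read counts were 1, 26 and 7 with Tributyrin and 10, 34 and 16 with vehicle, or 0.036, 0.906 and 0.304 CPM against 0.395, 1.00 and 0.756 CPM. Tributyrin mouse 1 was the lowest and vehicle mouse 2 the highest, as for *Acta1*, and Tributyrin mouse 2 was the second highest. The log2 fold change was -0.78 ± 0.689 (SE, edgeR, adjusted p = 0.999), and it was -1.49 with limma-voom, -0.22 without Tributyrin mouse 1 and -2.16 without Tributyrin mouse 2. *Tnni2*, annotated as the fast skeletal form, had 23 to 52 reads per library and a log2 fold change of 0.51 ± 0.268 (SE, unadjusted p = 0.0824, edgeR).

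*Tnni3*, the only troponin I of the adult ventricle in quantity, measured 4366, 3792 and 4525 CPM with Tributyrin and 3750, 3639 and 3573 CPM with vehicle. All 3 treated mice were above all 3 vehicle mice, by a margin that was small between Tributyrin mouse 2 and vehicle mouse 1. The log2 fold change was 0.21 ± 0.081 (SE, edgeR, unadjusted p = 0.0262, adjusted p = 0.999). The gene *Dnaaf3* overlaps it by 86 exonic bases on the same strand and held 159 to 222 reads, against 75580 to 123622 for *Tnni3*.

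Reads of *Tnni1* per 1000000 reads of *Tnni3* were 8.15, 239 and 67.3 with Tributyrin and 105, 275 and 212 with vehicle. The first of these rests on 1 read among 122745 and has a 95% exact interval from 0.206 to 45.4 for counting error alone. The means were 105 ± 120 and 197 ± 85.8 (SD, n = 3). Mean log2 ratios differed by -1.85 ± 1.48 (SE; p = 0.3, two-sided exact permutation test), and by -0.53 without Tributyrin mouse 1. Taken as the log2 of the ratio of group means, which gives the mouse with 1 read less weight, the difference was -0.91.

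*Tnnt1* was the only fetal isoform with a higher mean with Tributyrin. It measured 10.6, 9.69 and 12.6 CPM with Tributyrin and 7.50, 7.86 and 9.46 CPM with vehicle. The groups did not overlap, though Tributyrin mouse 2 was barely above vehicle mouse 3. By library size alone the order of these mice reversed, with 278 of 28709628 counts against 200 of 20369746. The gap between the groups therefore depends on the scaling. On the log2 scale the fold change was 0.40 ± 0.136 (SE, edgeR, unadjusted p = 0.0136, adjusted p = 0.999). The counts were 190 to 297 per library. The fitted coefficient of variation was 11.4%, and 66.4% of genes at a similar level had a lower dispersion.

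*Tnnt2*, the troponin T that binds the complex to tropomyosin in the adult heart, measured 7479, 6515 and 7782 CPM with Tributyrin and 6819, 5798 and 5928 CPM with vehicle. Tributyrin mice 1 and 3 were above all vehicle mice and Tributyrin mouse 2 was below vehicle mouse 1. The log2 fold change was 0.23 ± 0.093 (SE, edgeR, unadjusted p = 0.0315, adjusted p = 0.999).

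Both troponin T genes had a higher mean with Tributyrin, and their ratio differed less than either gene did. Reads of *Tnnt1* per 1000 reads of *Tnnt2* were 1.41, 1.49 and 1.61 with Tributyrin and 1.10, 1.36 and 1.59 with vehicle. The means of 1.505 ± 0.102 and 1.35 ± 0.247 (SD, n = 3) were closer than the spread of the vehicle mice, and mean log2 ratios differed by 0.17 ± 0.165 (SE; p = 0.4, two-sided exact permutation test). *Tnnt3* held 2 to 10 reads per library. Adjusted over the 4 ratios tested, p was 0.5 for each.

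**Figure D3:**
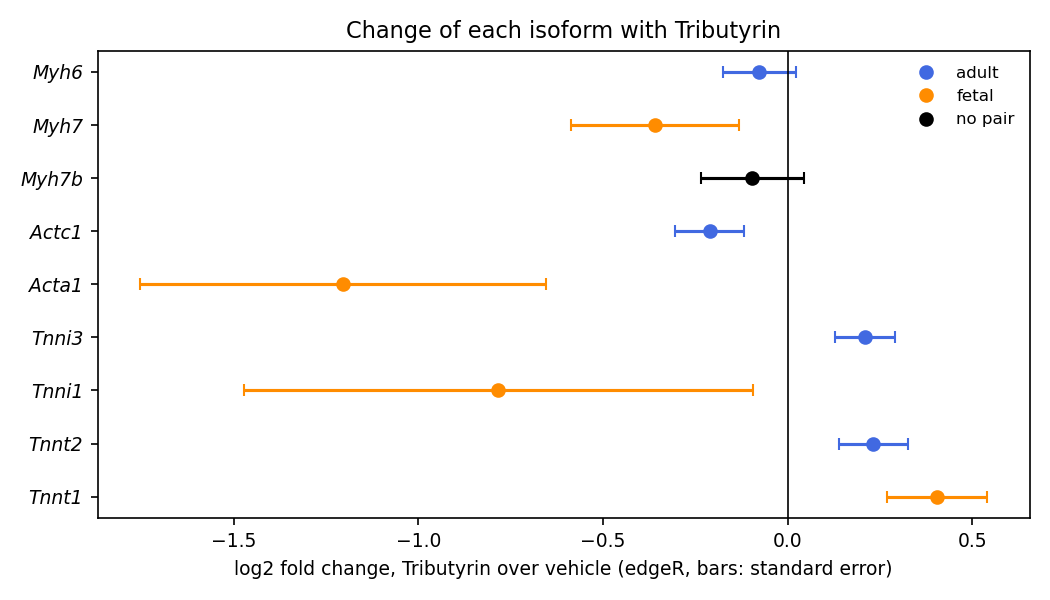
Log2 fold change of each isoform gene, WD + Tributyrin over WD + Vehicle, from edgeR with bars of ± 1 standard error, coloured as adult, fetal or without a pair. The 3 troponin genes *Tnni3*, *Tnnt2* and *Tnnt1* lie above 0 and the other 6 genes below, and no gene passed the adjusted test.

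The 4 fetal isoforms did not follow 1 order of mice. *Myh7* was highest in vehicle mouse 3, *Acta1* and *Tnni1* in vehicle mouse 2 and *Tnnt1* in Tributyrin mouse 3. The lowest value of *Myh7*, *Acta1* and *Tnni1* was in Tributyrin mouse 1, and that of *Tnnt1* in vehicle mouse 1. Tributyrin mouse 1 also held the lowest value of *Myh6*, *Myh7b* and *Actc1*, so this was not limited to fetal isoforms. The adult isoforms varied little, with fitted coefficients of variation of 9.37% for *Myh6*, 8.98% for *Actc1*, 8.24% for *Tnni3* and 9.08% for *Tnnt2*. *Myh7* had 19.7%, and 11 of the 1609 genes at a similar level had a dispersion at least as high, itself included.

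**Figure D4:**
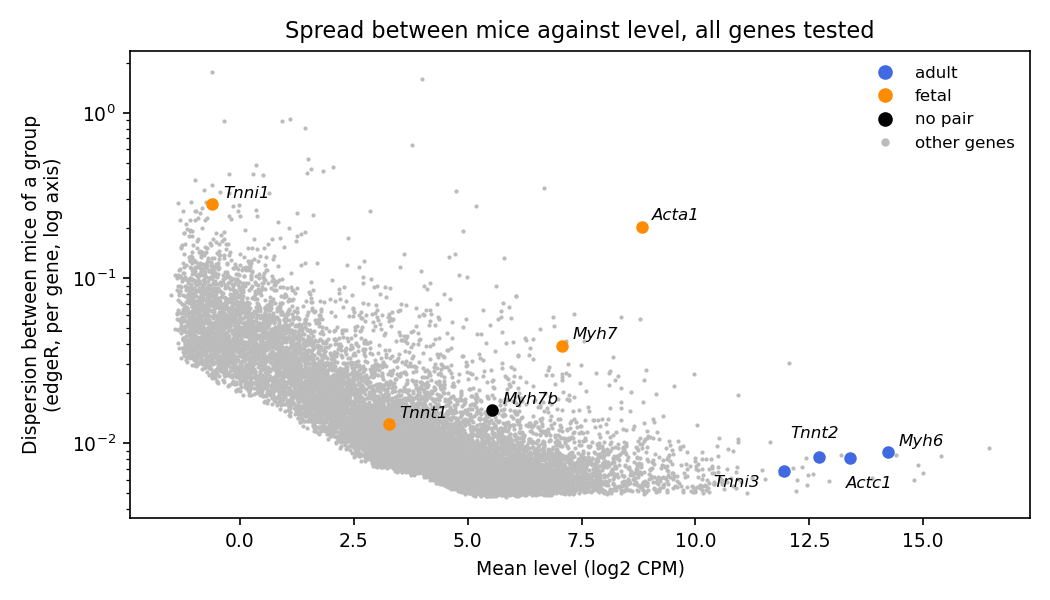
Dispersion between mice of a group (edgeR, per gene, log axis) against mean level (log2 CPM) for the 14133 genes tested, with the adult isoforms in blue, the fetal ones in orange and *Myh7b* in black. *Acta1* at 0.205 stands far above genes of its level, *Myh7* and *Tnni1* lie near the upper edge, and the adult isoforms and *Tnnt1* lie inside the cloud.

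By Pearson's r of log2 CPM over the 6 libraries, the genes most like *Myh7* among 10166 were *Ptprf*, *Fut11* and *Asap1* (r = 0.98 each), those most like *Acta1* were *P2rx5*, *Slc16a1* and *Tmem184b* (0.99 each), and those most like *Tnnt1* were *Anapc4* (0.99), *Ndufaf7* and *Polr2k* (0.98 each). For *Tnni1* they were *Fam84b*, *Ahnak2* and *Tie1* (0.99 each). These are the highest of many values over 6 libraries that share their groups and depth, and no gene appears for more than 1 isoform.

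The other sarcomere genes were set beside the pairs. Of 28 listed, 18 were tested, 7 were higher and 11 lower with Tributyrin, none passed the adjusted test and the median log2 fold change was -0.10. Unadjusted p was under 0.05 for 1 higher gene, *Tpm2* (β-tropomyosin, 0.34 ± 0.135 SE), and for 4 lower genes. Over all genes tested such a p was held by 1.97% on the higher side and 2.28% on the lower. *Mybpc2*, the fast skeletal myosin binding protein C, measured 6.65, 20.2 and 12.6 CPM with Tributyrin and 20.7, 30.9 and 28.98 CPM with vehicle. Its groups did not overlap, and the log2 fold change was -1.03 ± 0.307 (SE, edgeR, unadjusted p = 0.00698, adjusted p = 0.999). The other 3 were *Myl4* (-1.86), *Myl7* (-1.94) and *Mybphl* (-2.17, the lowest of the list), genes of atrial muscle. The highest of the list was *Tnni2*, given above.

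Atrial transcripts set 2 libraries apart. The summed level of 8 atrial markers was 59.6, 98.9 and 84.8 CPM in WD + Tributyrin mice and 234, 219 and 89.1 CPM in WD + Vehicle mice, so that vehicle mice 1 and 2 were high and vehicle mouse 3 was not. *Myl7*, the atrial regulatory light chain, showed the same split, with 66.3 and 56.3 CPM in vehicle mice 1 and 2 and 4.21 to 18.3 CPM in the other 4. *Myl4*, *Sln* and *Mybphl* were also highest in vehicle mice 1 and 2, while *Bmp10* had at most 1 read per library. Other markers did not follow this split. *Nppa* was highest in vehicle mouse 3 (39.8 CPM), and *Stard10* overlapped at 23.1 to 33.8 CPM. *Dkk3* in vehicle mouse 3 (12.2 CPM) was also above every Tributyrin mouse. Of the 7 atrial markers tested all 7 were lower with Tributyrin, 5 at an unadjusted p under 0.05. Of all genes tested 49.6% were higher, and 2.28% were lower at such a p. *Myl2*, the ventricular regulatory light chain, stood at 5748 to 6792 CPM and *Irx4*, a ventricular transcription factor, at 31.5 to 42.7 CPM in the 6 libraries. *Myl3*, another listed ventricular marker, stood at 4171 to 5041 CPM. The remaining listed ventricular markers are shared with atrial muscle or are members, and were not used to check the tissue. *Acta1* was highest in 1 of these 2 libraries and below Tributyrin mouse 3 in the other, and *Myh7* was highest in the vehicle library that was low in atrial transcripts. Without both libraries, a choice made after seeing the data, the log2 fold change was -0.80 for *Myh7*, -0.39 for *Acta1*, 0.21 for *Tnnt1* and 0.24 for *Tnni3*, each with an adjusted p of 1.00, and the lone vehicle mouse was assumed to vary like the others.

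Of 13 skeletal muscle markers 6 were tested, 2 higher and 4 lower, and their sum was 20.8, 37.3 and 30.5 CPM with Tributyrin and 38.2, 55.8 and 61.3 CPM with vehicle. Most of it was *Mybpc2* and *Casq1*, the skeletal calsequestrin, which measured 10.7 to 15.2 CPM with Tributyrin and 13.3 to 27.99 CPM with vehicle. The defining fast myosins *Myh1*, *Myh2* and *Myh4* were at most at 0.09 CPM, and *Tnnc2*, the fast skeletal troponin C, had 0 reads in all 6 libraries. The lowest of the list was *Pvalb* (-1.30), at 3 to 29 reads per library. All 5 smooth muscle markers were higher with Tributyrin, 3 of them at an unadjusted p under 0.05, where 49.6% and 1.97% of all genes were. *Myh11*, the smooth muscle myosin, stood at 40.7, 73.0 and 54.4 CPM against 38.9, 37.1 and 35.6 CPM. Haemoglobin transcripts summed to 916 CPM in Tributyrin mouse 1 and to 372 to 678 CPM in the others. Tributyrin mouse 1 held the lowest *Myh6*, *Myh7*, *Myh7b*, *Acta1*, *Actc1* and *Tnni1*. Of the conduction, fibroblast and endothelial markers 2 of 6, 2 of 5 and 1 of 4 were higher with Tributyrin, and those with an unadjusted p under 0.05 were the lower *Cacna2d2* (-1.05) and *Col1a1* (-0.46). The part of these cell types in the isoform values was not tested.

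Genes that a loaded heart induces were set beside the fetal isoforms. All 6 listed had a lower mean with Tributyrin, where 49.6% of all genes tested were higher. Their median log2 fold change was -0.31, and none passed the adjusted test. *Ankrd1*, a titin-associated stress protein, measured 440, 631 and 662 CPM with Tributyrin and 720, 1079 and 919 CPM with vehicle, and the groups did not overlap. Its log2 fold change was -0.65 ± 0.167 (SE, edgeR, unadjusted p = 0.00281, adjusted p = 0.999). *Nppb*, brain natriuretic peptide, measured 16.4, 44.1 and 49.0 CPM against 67.5, 88.0 and 63.4 CPM, again without overlap, with a log2 fold change of -1.004 ± 0.309 (SE, edgeR, unadjusted p = 0.00837, adjusted p = 0.999). *Nppa*, atrial natriuretic peptide, overlapped at 11.2, 15.9 and 27.7 CPM against 21.05, 18.4 and 39.8 CPM, and the smallest difference of the list was that of *Fhl1* (-0.02). *Ankrd1*, *Nppb*, *Nppa* and *Rcan1* were lowest in Tributyrin mouse 1, as were *Acta1* and the adult isoforms *Myh6* and *Actc1*. By contrast *Xirp2* was lowest in Tributyrin mouse 3 and *Fhl1* in Tributyrin mouse 2. The highest value was in vehicle mouse 2 for *Ankrd1*, *Nppb*, *Xirp2* and *Rcan1*, in vehicle mouse 3 for *Nppa* and in Tributyrin mouse 3 for *Fhl1*. No test of a shared order was made.

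**Figure D5:**
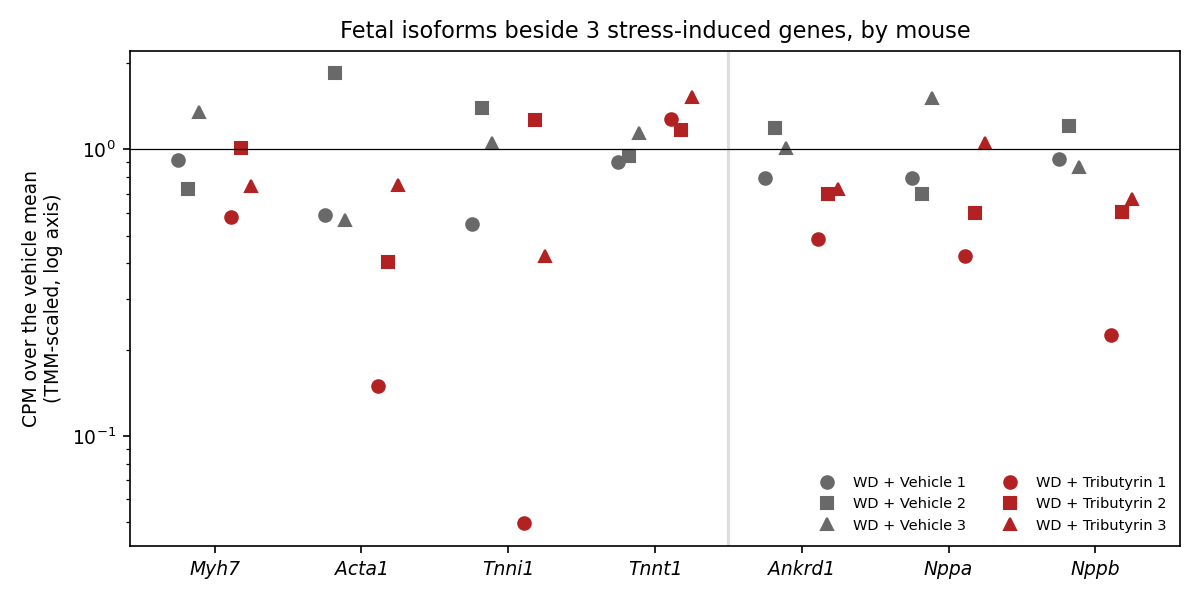
Level in each mouse over the mean of the 3 WD + Vehicle mice (TMM-scaled CPM, log axis) for the 4 fetal isoforms and for *Ankrd1*, *Nppa* and *Nppb*, with grey for WD + Vehicle, red for WD + Tributyrin and shapes for the mouse number. Tributyrin mouse 1 is the lowest point for every gene but *Tnnt1*. At this scaling only *Tnnt1*, *Ankrd1* and *Nppb* have groups that do not overlap.

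Of 23 known regulators of these genes, such as thyroid hormone receptors and the factors that bind the motifs above, 22 were tested, 9 were higher and 13 lower with Tributyrin, and none passed the adjusted test. The log2 fold change was 0.01 for *Thra* and for *Thrb*, the thyroid hormone receptors, -0.08 for *Srf*, serum response factor, and -0.04 for *Gata4*, and the highest of the list was *Rxrg* (0.09). *Tead4*, a factor of the M-CAT motif, was the only regulator with an unadjusted p under 0.05, at 2.42, 2.51 and 2.74 CPM with Tributyrin and 2.80, 3.80 and 3.73 CPM with vehicle, without overlap (log2 fold change -0.43 ± 0.185 SE, edgeR, unadjusted p = 0.0399, adjusted p = 0.999). Its more abundant relative *Tead1* had a log2 fold change of -0.19 ± 0.112 (SE) and overlapped.

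The libraries held 20369746 to 32734485 counts on genes, and no 2 libraries agreed within sampling noise. Mitochondrial transcripts took 23.6 to 28.8% of the counts, and their part in the isoform values, like that of depth, was not tested beyond the scaling alternatives.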

How the data were processed

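The authors prepared stranded mRNA libraries from total RNA and sequenced single-end reads of 50 bases. Per the labels and the paper's methods they trimmed adapters (cutadapt 1.13), aligned to mm10 with STAR and counted reads per gene (HTSeq 0.6.1p1). No source used here gives the STAR version, the annotation release or the strand setting. The deposited values are whole-number counts, not normalized, for 54232 identifiers, of which 54165 matched GENCODE M21; 0 lines name no gene.

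Samples were grouped by their titles. Counts were fitted in R 4.3.3 with edgeR 4.0.16 (quasi-likelihood, TMM, filterByExpr with a minimum count of 10 and total of 15, no covariate), adjusted over 14133 genes with a threshold of 10%. DESeq2 1.42.0 and limma 3.58.1 (voom) were alternatives, with other scalings and filters, the replicate block and leaving out each mouse; for ratios also a pseudocount of 0.5 and the log2 of the ratio of group means. Ratios were compared by a two-sided exact permutation test over 20 assignments, with Python 3.11.15 and scipy 1.17.1. Sequences came from GENCODE M21 and RefSeq tables. Totals of 20369746 to 32734485 counts set the counting error, which weighs most for *Tnni1* (1 to 34 reads) and *Tnnt1* (190 to 297 reads).

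The members and lists were chosen with earlier results of these data known. Genes named were the members, list genes with an unadjusted p under 0.05, the extremes of a list and relatives of the members. *Gm47692*, *Dnaaf3* and *Lad1* were named for position or shared sequence. Other list genes (*Thra*, *Thrb*, *Srf*, *Gata4*, *Tead1*, *Nppa*, *Xirp2*, *Rcan1*, *Irx4*, *Myl2*, *Myl3*) were named after their values were seen. The fit was checked on simulated counts.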

Additional observations from a re-analysis of the deposited data

How the results depend on the processing

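At an FDR of 10% the number of genes called, 0 in the fit reported, became 11 with DESeq2, 167 without the filter on low counts and 2 with the replicate block. Leaving out each mouse gave 0 to 3. The replicate numbers share little, with correlations of deviations of 0.21, 0.04 and 0.01, and under the block no member passed (log2 fold change of *Acta1* -1.30, adjusted p = 0.708, edgeR). Without the filter *Myh7* (-0.355, adjusted p = 0.0135) and *Acta1* (-1.21, adjusted p = 8.66e-42, edgeR) were called. In that fit of 25581 genes the test gave every gene the spread of the trend and no weight to its own spread. A separate estimate, the fitted dispersion, was 0.00836 for *Acta1* by the trend and 0.157 for the gene itself.

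Leaving out each mouse, log2 fold changes ranged from -0.193 to -0.00445 for *Myh6*, -0.590 to -0.0799 for *Myh7*, -0.243 to 0.0527 for *Myh7b* (above 0 only without Tributyrin mouse 1), -1.86 to -0.412 for *Acta1*, -0.310 to -0.151 for *Actc1*, -2.16 to -0.223 for *Tnni1*, 0.161 to 0.283 for *Tnni3*, 0.299 to 0.506 for *Tnnt1* and 0.181 to 0.314 for *Tnnt2*. The log2 ratios ranged from -0.437 to -0.0470 (*Myh7* to *Myh6*), -1.48 to -0.466 (*Acta1* to *Actc1*), -2.97 to -0.530 (*Tnni1* to *Tnni3*) and 0.0312 to 0.299 (*Tnnt1* to *Tnnt2*). Without vehicle mice 1 and 2, chosen after seeing the data, *Myh7* to *Myh6* was -0.705 and *Tnnt1* to *Tnnt2* turned to -0.0862; the cause was not tested. Scaling by library size alone gave a median of -0.0736 over all genes and turned the direction of no member. *Tnni1* had no value at a mean CPM of at least 5. Its 1 to 34 reads limit what can be said of it.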
